A study of Mus musculus with 4 samples.

Results

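Cohesin is a ring of SMC1, SMC3 and the kleisin RAD21, to which a STAG1 or STAG2 subunit binds. It holds sister chromatids together from replication to anaphase and forms chromatin loops in interphase. NIPBL and MAU2 load the ring onto DNA, WAPL opens it, and PDS5A and PDS5B sit on it and take part in both its release and its maintenance. In the testis these genes serve dividing spermatogonia and somatic cells, and germ cells that enter meiosis add their own subunits. The 10 genes described here, chosen by symbol from a list of mitotic cohesin subunits, loaders and release factors, are Smc1a, Smc3, Rad21, Stag1, Stag2, Nipbl, Mau2, Wapl, Pds5a and Pds5b. All 10 were found among the 55357 gene identifiers of the deposited table, and all 10 passed the filter on low counts, which left 17422 genes for testing.

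Cells were taken from the testes of C57BL/6 mice at 7 days of age. RNA precipitated with an antibody to the RNA helicase DDX20 was sequenced in 2 libraries (DDX20 RIP), and input RNA, 10% of the total, in another 2. The cells carry no transgene or mutation according to the labels, and both groups were exposed to 254 nm light (200 mJ per square cm), which crosslinks RNA to protein. The antibody catalogue number is not the same in the labels of the 2 RIP libraries, and the labels do not say that replicates came from separate cell preparations or how many animals were used. No precipitation with a control antibody is used here, so a higher value means a larger share of the RIP library than of the input and not binding by DDX20.

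Libraries held 38458014 and 37927689 counts in RIP and 21913977 and 21416567 in input. Counts were scaled by the trimmed mean of M values (TMM) and are given as CPM (counts relative to the scaled library size). The message of Ddx20 stood at 77.6 and 83.2 CPM in RIP and at 41.4 and 41.2 CPM in input, which checks no label because nothing was deleted. Markers of Sertoli cells, germ cells, Leydig cells and stroma were all detected, as the tissue label implies. The markers differed between RIP and input too. In RIP all 5 Leydig, 3 macrophage, 2 endothelial and 2 red blood cell markers fell. Of the germ cell and Sertoli cell markers 4 of 7 and 3 of 6 fell, while 2 of each rose. Over all genes tested 38.6% were called lower and 38.7% higher. Leydig markers summed to between 145.5 and 148.6 CPM in RIP libraries and between 311.6 and 321.1 CPM in input libraries, and Sertoli cell markers to between 1866 and 1869 CPM in RIP and between 2774 and 2804 CPM in input. Germ cell markers summed to between 176.2 and 177.8 CPM in RIP and between 304.5 and 311.5 CPM in input, and macrophage markers to 17.4 and 19.2 CPM in RIP and 40.6 and 41.1 CPM in input. Of 4 myoid and stromal markers 2 fell and 1, Col1a1, rose, and none of the markers named was at 0. Mki67 and Top2a, genes of dividing cells, rose by 2.23 and 2.24 on the log2 scale, while the replication clamp gene Pcna stood at -0.15 and was called lower. The coding sequences of Mki67, Top2a and Pcna are 9531, 4584 and 783 nt long. With the trend of fold change in coding length taken out, they stood at 0.49, 0.96 and 0.37. A level in a bulk library gives neither the number of cells of a type nor the RNA per cell. A share of the RIP library also depends on which RNAs were recovered. The labels describe input as a share of the total and do not say which RIP and input libraries came from the same cells, and whether the marker differences bear on the values below was not tested.

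All 10 cohesin genes rose in the precipitate. Their summed level was 2707 and 2679 CPM in RIP against 1208 and 1187 CPM in input, and without any scaling they held 0.238% and 0.239% of RIP counts against 0.136% and 0.134% of input counts. Log2 fold changes ran from 0.39 for Rad21 to 1.89 for Nipbl with a median of 1.17, beside a median of -0.05 over all genes tested. In the quasi-likelihood test of edgeR each gene passed an adjusted p of 0.05 (Benjamini-Hochberg, over all genes), and the largest was 4.69e-10, for Mau2. Of all genes tested 38.7% were called higher, so the members' 10 of 10 stands above that share. Among protein-coding genes split into 10 groups by coding length, the share was 81.3% in the longest group, which held 8 members. It was 59.2% in the group of Rad21 and Mau2. At least 2-fold increases were called for 7 of the 10, against 17.1% of all genes. These 7 were all in the longest group, whose median increase itself exceeded 2-fold (log2 fold change 1.39). Against a minimum change of 1.5-fold 7 passed, where 24.2% of all genes were called higher. Both RIP libraries lay above both input libraries for each of the 10, as for 42.7% of all genes. Scaling moved the size of these values: with total counts in place of TMM the median of all genes was -0.40, 9 of the 10 were called higher (28.7% of all genes, with 50.8% lower) and 3 were called higher by at least 2-fold. Total counts lowered the log2 fold change of each cohesin gene and each tested gene of the related lists below by 0.35, and upper-quartile scaling by 0.34. With upper-quartile scaling it was also 9 of 10, against 28.8% of all genes. The p-values measure the spread between replicate libraries, which may be technical.

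**Figure D1:**
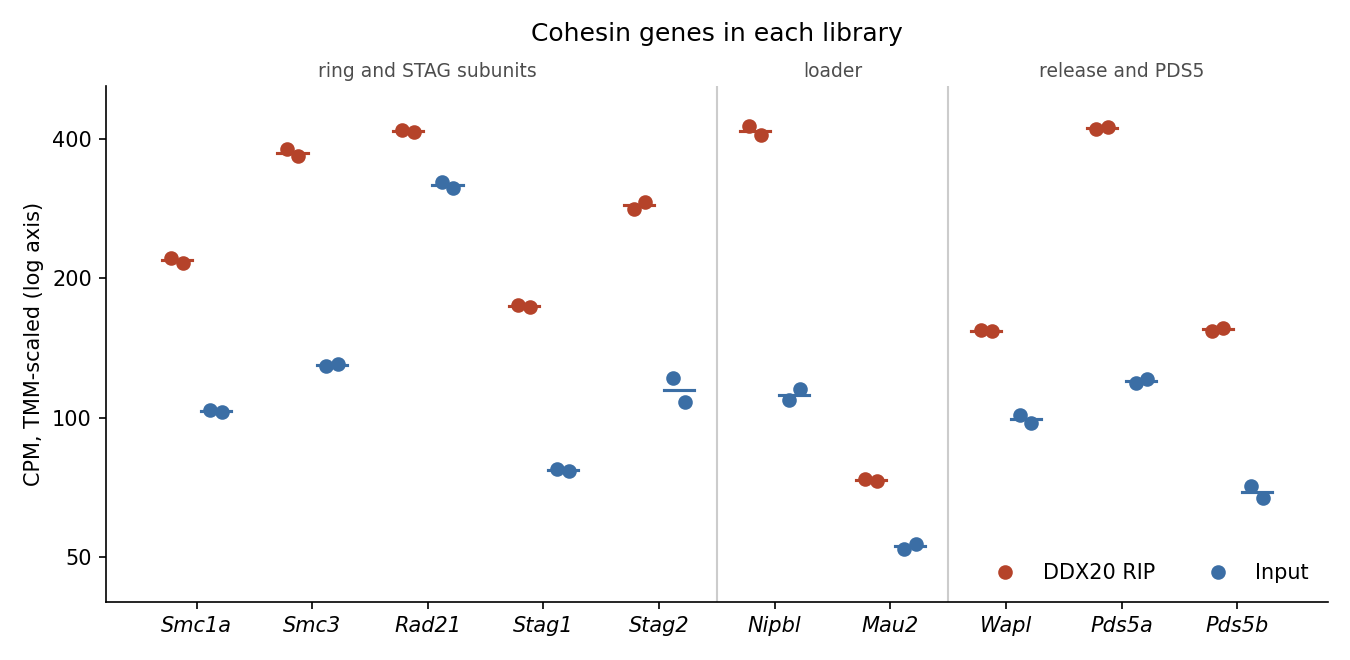
Level of each cohesin gene in CPM (log axis) in the 2 DDX20 RIP and 2 input libraries; points are libraries and short lines are group means. In all 10 genes both RIP libraries lie above both input libraries, with the widest gap for Nipbl and Pds5a and the narrowest for Rad21.

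The 2 SMC subunits of the ring rose by different amounts. Smc3 stood at 380.9 and 367.3 CPM in RIP and at 129.6 and 130.7 CPM in input, which gave a log2 fold change of 1.52 ± 0.0323 (± SE, 2 libraries in each group). Smc1a, the X-linked mitotic SMC1, stood at 221.7 and 216.1 CPM in RIP and at 104.0 and 103.1 CPM in input (1.08 ± 0.0360). The groups did not overlap for either gene, but the balance of these ring partners differed between the groups. Smc1a counts per kb of transcript were 0.602 and 0.608 of those of Smc3 in the RIP libraries and 0.830 and 0.816 in the input libraries. This ratio, taken within a library, does not depend on scaling between libraries. Smc3 (ENSMUSG00000024974.11) lies on chromosome 19 from 53600398 to 53645833 and Smc1a (ENSMUSG00000041133.12) on chromosome X from 152016428 to 152062694 (GRCm38).

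Rad21, the kleisin that closes the ring and is cut at anaphase, had the highest level of the 10 in input and the smallest increase. It stood at 417.5 and 415.1 CPM in RIP against 322.4 and 313.9 CPM in input. The groups did not overlap, and the log2 fold change was 0.39 ± 0.0276. This call depends on scaling: Rad21 stood at 0.04 ± 0.0258 with total counts (adjusted p = 0.161, edgeR) and at 0.05 with upper-quartile scaling (adjusted p = 0.120, edgeR). Relative to Smc3, Rad21 per kb of transcript was 1.34 and 1.39 times as high in RIP and 3.05 and 2.95 times as high in input, so the ratio was lower in RIP by 1.14 ± 0.0334 on the log2 scale. The coding sequences are 1905 nt in Rad21 and 3651 nt in Smc3. With the trend of fold change in coding length taken out, Rad21 and Smc3 stood at -0.09 and 0.41. Rad21 lies on chromosome 15 from 51962240 to 51991747.

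Stag1 and Stag2 encode alternative subunits that connect the ring to other factors. Stag2, on chromosome X from 42149317 to 42277185, stood at 282.4 and 293.1 CPM in RIP and at 121.6 and 108.0 CPM in input (log2 fold change 1.32 ± 0.0402). Stag1, on chromosome 9 from 100597798 to 100959375, stood at 175.0 and 173.4 CPM in RIP and at 77.4 and 76.7 CPM in input (1.18 ± 0.0391). Both rose, and the 2 input libraries differed more from each other for Stag2 than for Stag1. The ratio of Stag1 to Stag2 per kb was 0.597 and 0.570 in RIP and 0.612 and 0.683 in input. The groups did not overlap, though the difference of -0.15 ± 0.0856 on the log2 scale ran from -0.23 to -0.07 when single libraries were left out. Stag2 was thus the more abundant paralog in both groups, and the ratio moved by less than 2 standard errors.

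Because the paralogs share sequence, their reads could in principle be mixed up, and the stretches of 150 nt (the read length) where their coding sequences are most alike are shown for that reason. In the GENCODE M21 transcripts (GRCm38) Stag1 and Stag2 were identical at 72.7% of 3600 aligned coding bases, and at most at 127 of 150 in any ungapped window. Capitals mark the 23 positions that differ in that window, from base 2647 of the Stag1 coding sequence and base 2635 of that of Stag2.
Stag1: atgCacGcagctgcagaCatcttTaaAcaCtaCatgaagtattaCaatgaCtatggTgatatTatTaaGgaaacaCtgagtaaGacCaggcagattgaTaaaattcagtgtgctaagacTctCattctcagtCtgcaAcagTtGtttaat
Stag2: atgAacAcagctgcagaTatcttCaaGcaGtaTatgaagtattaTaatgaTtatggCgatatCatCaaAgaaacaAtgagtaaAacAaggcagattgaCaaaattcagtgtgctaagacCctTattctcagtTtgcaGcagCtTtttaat
The longest run shared without a difference between the 2 transcripts was 23 nt, so a read of 150 nt from either meets many distinguishing bases.

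The loader showed the widest split of the pairs compared, before coding length was taken into account. Nipbl, which encodes the large HEAT-repeat subunit that stimulates the cohesin ATPase, stood at 426.2 and 407.4 CPM in RIP against 109.3 and 115.2 CPM in input. Its 3.71-fold increase (log2 fold change 1.89 ± 0.0340) exceeded that of 97.8% of all genes tested. Mau2, the small partner that stabilises NIPBL, stood at 73.7 and 72.9 CPM in RIP and at 52.1 and 53.3 CPM in input (0.48 ± 0.0520, or 1.39-fold). The groups did not overlap for either. Within libraries, Nipbl per kb was 3.30 and 3.19 times Mau2 in RIP and 1.195 and 1.232 times Mau2 in input, a 2.67-fold higher ratio (1.42 ± 0.0325 on the log2 scale). Nipbl lies on chromosome 15 from 8290617 to 8444463 and Mau2 on chromosome 8 from 70016123 to 70042734. With total counts Mau2 stood at 0.13 ± 0.0530 (adjusted p = 0.0280, edgeR). The coding sequences are 8394 nt in Nipbl and 1854 nt in Mau2. With the trend of fold change in coding length taken out, Nipbl and Mau2 stood at 0.23 and 0.03. By the same measure Pds5a and Wapl, described next, stood at 0.64 and -0.47.

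Among the release factors, Pds5a rose about as much as Nipbl. It stood at 420.6 and 423.9 CPM in RIP and at 118.8 and 121.5 CPM in input (log2 fold change 1.81 ± 0.0315). Its paralog Pds5b stood at 154.3 and 156.4 CPM in RIP and at 71.2 and 67.2 CPM in input (1.17 ± 0.0418). Neither pair of groups overlapped. Pds5a per kb was 2.26 and 2.25 times Pds5b in RIP and 1.385 and 1.501 times Pds5b in input (difference 0.65 ± 0.0579 on the log2 scale). Wapl, which encodes the protein that opens the ring, stood at 154.4 and 153.9 CPM in RIP and at 101.3 and 97.5 CPM in input (0.63 ± 0.0387, and 0.28 ± 0.0382 with total counts). Relative to Pds5a, which binds the same ring, Wapl per kb was 0.516 and 0.511 in RIP and 1.199 and 1.13 in input, so the order of these 2 genes differed between the groups. With the longer combined exon length of Pds5a in place of its representative transcript, Wapl stayed above Pds5a in RIP as well, at 23.3 against 21.8 CPM per kb, so that order depends on the length used.

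Pds5a and Pds5b lie on chromosome 5, from 65605721 to 65698273 and from 150673739 to 150810690. They were identical at 70.9% of 3887 aligned coding bases, and the most alike window of 150 nt differed at 25 positions, again in capitals, from base 379 of the Pds5a and base 352 of the Pds5b coding sequence.
Pds5a: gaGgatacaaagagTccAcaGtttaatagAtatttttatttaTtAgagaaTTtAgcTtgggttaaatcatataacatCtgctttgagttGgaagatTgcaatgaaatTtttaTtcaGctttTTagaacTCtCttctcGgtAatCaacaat
Pds5b: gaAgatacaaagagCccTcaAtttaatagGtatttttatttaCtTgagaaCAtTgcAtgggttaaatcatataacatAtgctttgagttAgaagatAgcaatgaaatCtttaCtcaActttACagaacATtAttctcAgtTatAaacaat
Their longest shared run was also 23 nt. Wapl is on chromosome 14 from 34673928 to 34747983. The library kit does not mark strand, and exons of poorly supported transcripts on the opposite strand share 374 of the 19335 exon bases of Pds5a and 28 of the 8273 of Stag2. No other member shared exon bases with another annotated gene.

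**Figure D2:**
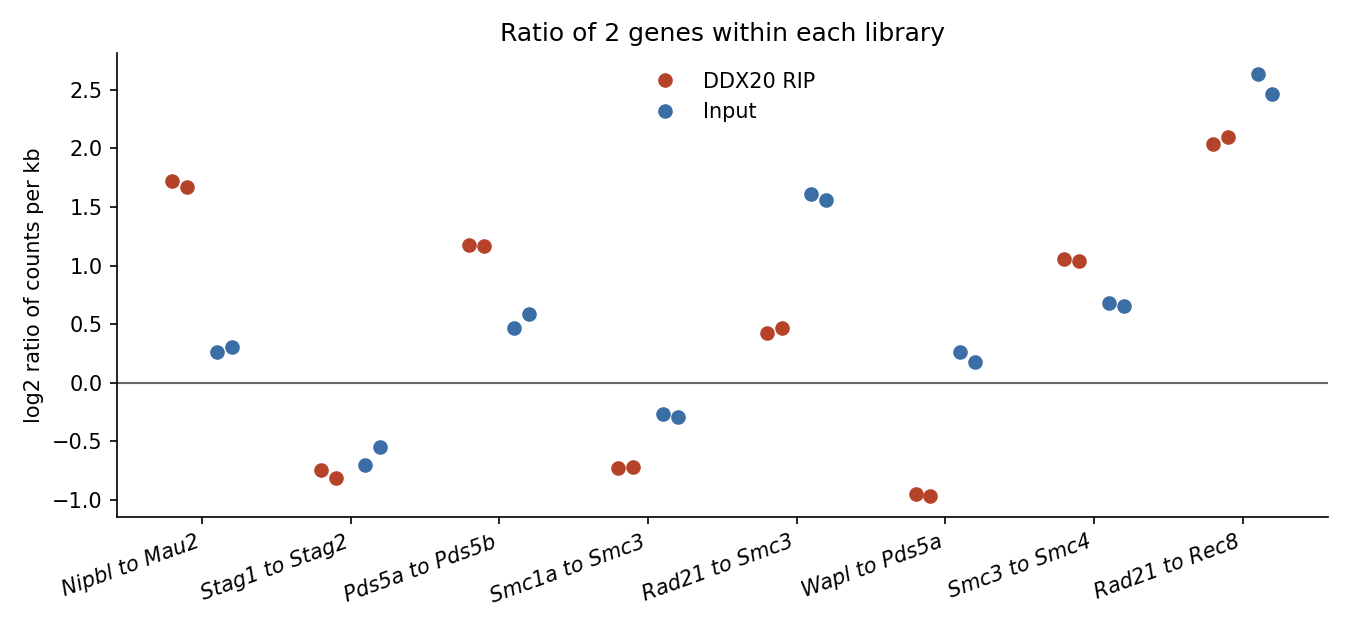
Log2 ratio of the counts per kb of 2 genes within each library, for 8 pairs; points are the 2 DDX20 RIP and 2 input libraries. The RIP and input libraries do not overlap in any of the 8 pairs, nor in 8 of the 9 neighbouring pairs in the order of fold change. Nipbl to Mau2 is higher in RIP, and Rad21 to Smc3 and Wapl to Pds5a are lower. The trend of fold change in coding length is not taken out of these ratios.

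In each of the 8 pairs compared, the RIP and input libraries did not overlap. With 2 libraries against 2, the exact two-sided permutation test cannot go below p = 0.333, the value it gave for each, so no ratio could pass a threshold and none does after adjustment. The same ratios were taken for the 9 neighbouring pairs in the order of fold change, which was Nipbl, Pds5a, Smc3, Stag2, Stag1, Pds5b, Smc1a, Wapl, Mau2 and Rad21. In 8 of these 9 pairs the libraries did not overlap either, so lack of overlap did not set the chosen pairs apart. Of the 9 differences, 4 exceeded 2 standard errors. Stag1 and Pds5b could not be told apart, at a difference of 0.01 ± 0.0390 with overlapping libraries, and Nipbl and Pds5a differed by 0.08 ± 0.0444. The widest step in the order lay between Smc1a and Wapl, at 0.45 ± 0.0266.

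Compared per kb of transcript, Rad21 was the most abundant member in both groups, at 105 ± 0.433 CPM per kb in RIP and 80.4 ± 1.52 in input (SD, n = 2). Smc3 followed in both groups, at 77.1 ± 1.99 in RIP and 26.8 ± 0.152 in input. In RIP the next 3 genes lay close together, with Stag2 at 48.3 ± 1.27, Pds5a at 47.3 ± 0.263 and Smc1a at 46.7 ± 0.853, and the libraries of neighbours in this order overlapped. In input the next were Smc1a at 22.1 ± 0.139, Stag2 at 19.3 ± 1.61 and Wapl at 15.7 ± 0.422. Mau2 was the lowest in RIP (13.6 ± 0.108), against 9.82 ± 0.163 in input, where Pds5b stood at 9.33 ± 0.383. These levels use the length of 1 representative transcript per gene; over all annotated exon bases Pds5a stood at 21.8 CPM per kb in RIP and 6.21 in input, and Rad21 and Smc3 were still the first and second.

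The cohesin genes have long coding sequences, a property that the choice of genes did not use. Their coding lengths ran from 1854 nt in Mau2 and 1905 nt in Rad21 to 8394 nt in Nipbl, with 7 between 3600 and 4338 nt, beside a median of 1377 nt over the protein-coding genes tested. When those 14673 genes were split by coding length into 10 groups of about equal size, the share called higher ran from 4.9% in the shortest group to 81.3% in the longest. The longest group, from 3495 nt, held 8 of the 10 members, and its median log2 fold change was 1.39. Rad21 and Mau2 lay in group 7, from 1626 to 1974 nt, where 59.2% of genes were called higher and the median was 0.41. Across the 10 genes the log2 fold change followed coding length with a Spearman correlation of 0.73 (Pearson's r 0.82 on log2 length). The Spearman correlation was 0.62 with the length of the whole transcript, 0.48 with all annotated exon bases, -0.20 with 3′ untranslated length and -0.50 with the GC content of the coding sequence. These are descriptions over genes that share 4 libraries, and over the 14673 genes the Spearman correlation with coding length was 0.64. Over those genes it was 0.27 with 3′ untranslated length and 0.03 with GC content. Whether the values over the 10 differ from these was not tested. With mean CPM the Spearman correlation was 0.35 over the 10 and 0.38 over the 14673.

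**Figure D3:**
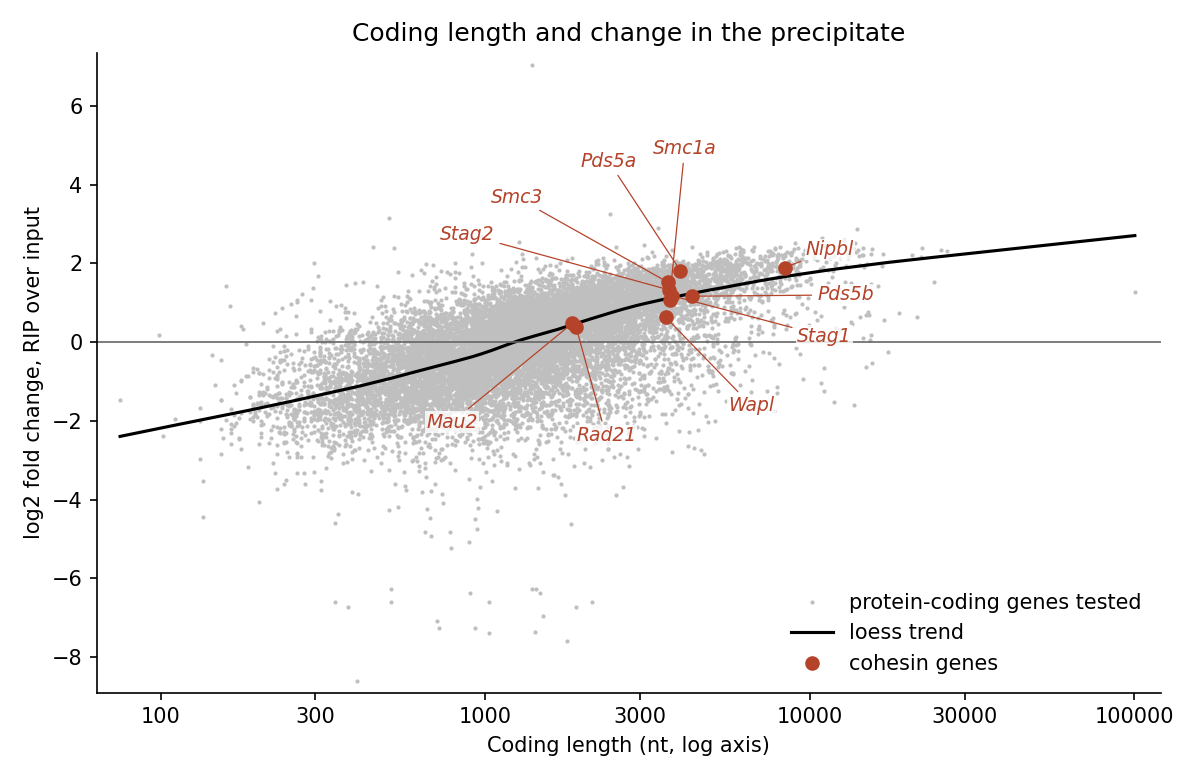
Coding length (nt, log axis) against log2 fold change of RIP over input for the 14673 protein-coding genes tested (grey), with the loess trend (line) and the 10 cohesin genes (red). Most cohesin genes lie on or near the trend, with Pds5a and Smc3 above it and Wapl below it.

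A fit with the trend in coding length as an offset set each gene against others of its coding length. In it 3 of the 10 were called higher and 5 lower, where 32.1% and 41.1% of all genes with a coding length were called higher and lower. Library scaling was refitted there on the protein-coding genes alone, and its median over all genes was -0.11, so a value near 0 in that fit is not the trend itself. Keeping the scaling from all genes, an alternative chosen after seeing the data, gave a median of 0.02 over all genes and 0.04 over the members, with 4 members higher and 2 lower (39.3% and 33.9% of all genes). Pds5a stood highest in both fits, at 0.64 ± 0.0322 with the scaling from all genes and 0.50 ± 0.0312 with the refitted scaling. Smc3 stood at 0.41 ± 0.0327 and 0.28 ± 0.0316 in the same order of fits, and Nipbl at 0.23 ± 0.0339 and 0.09 ± 0.0328, and these 3 were called higher in both. Stag2 was called higher only with the scaling from all genes, at 0.21 ± 0.0393 against 0.07 ± 0.0387 (adjusted p = 0.103, edgeR). Wapl was the lowest and was called lower in both, at -0.47 ± 0.0398 and -0.60 ± 0.0391, as was Rad21, at -0.09 ± 0.0279 and -0.22. The lower calls of Pds5b (-0.21), Smc1a (-0.18) and Stag1 (-0.09) with the refitted scaling were lost with the scaling from all genes, where Pds5b stood at -0.07, Smc1a at -0.04 and Stag1 at 0.04. Mau2 passed in neither. With an offset for the whole exon length instead, 9 were called higher and Mau2 lower (-0.24 ± 0.0522), against 37.6% and 32.3% of all genes.

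**Figure D4:**
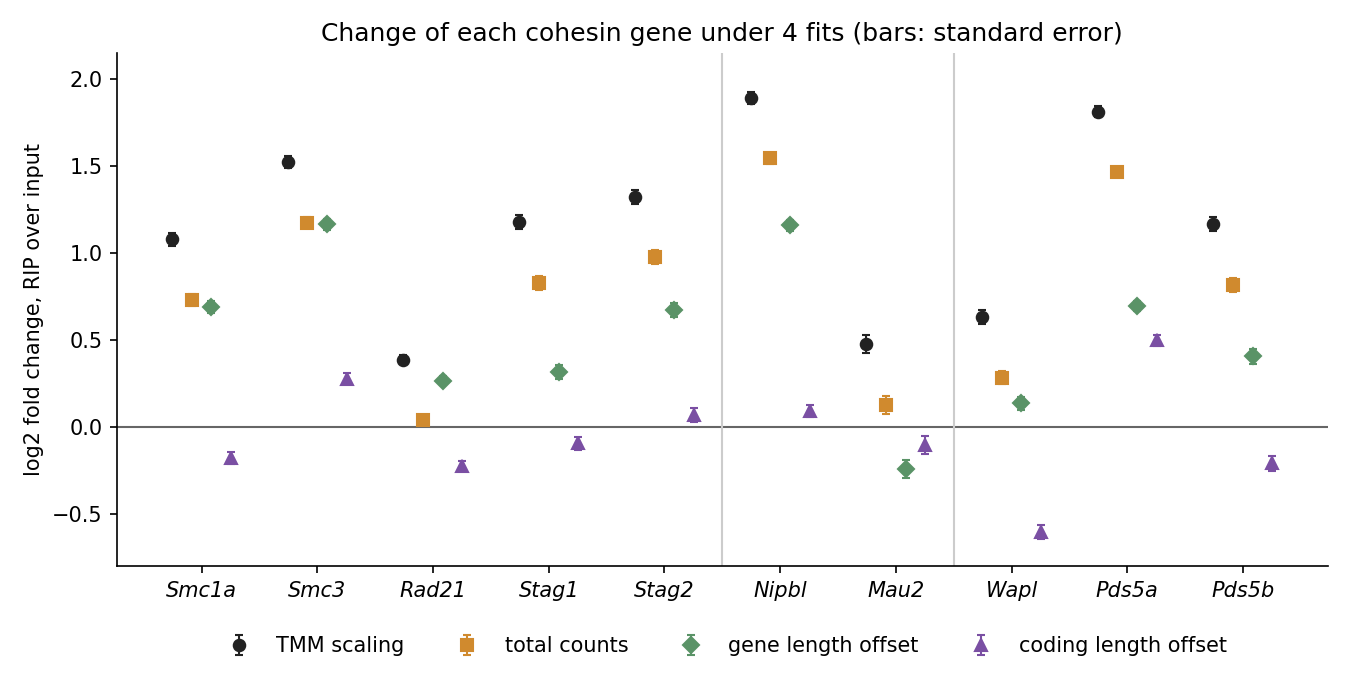
Log2 fold change of RIP over input for each cohesin gene with TMM scaling, with total counts, and with offsets for gene (exon) length and coding length; bars are standard errors, and where none is visible it is smaller than the symbol. With TMM scaling all 10 lie above 0, and with the coding length offset (library scaling refitted on protein-coding genes) they lie between -0.60 for Wapl and 0.50 for Pds5a.

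Other genes of the cohesin cycle moved in both directions. The 21 listed partners acetylate, protect or cleave cohesin or act with it at replication forks and loop anchors. Of these 20 were tested, 14 rose and 5 fell (38.7% and 38.6% of all genes), with a median of 0.69. Their median coding length was 2008.5 nt. Among protein-coding genes of 1977 to 2490 nt, 68.3% were called higher and the median was 0.68. Espl1, which encodes separase, the protease that cuts RAD21, had a larger fold change than any member before coding length was taken into account. It stood at 302.0 ± 8.62 CPM in RIP and 69.2 ± 1.57 in input (log2 fold change 2.12 ± 0.0373, coding length 6354 nt). Pttg1, which encodes the separase inhibitor securin, fell to 39.3 ± 1.30 CPM in RIP, against 59.5 ± 1.08 in input (-0.60 ± 0.0597, 597 nt). With the coding length offset and scaling from all genes Espl1 stood at 0.63 and Pttg1 at 0.18, beside 0.64 for Pds5a, the highest member. The fork protection partners also split before that offset, with Timeless at 1.92 ± 0.0443 (3591 nt) and Tipin at -0.76 ± 0.0605 (834 nt). With it they stood at 0.825 and -0.30. Ppp2r1a, the scaffold of the phosphatase that shugoshins bring to cohesin, rose by 0.57 ± 0.0278. Dscc1, a subunit of a clamp loader needed for cohesion, fell by 0.62, as did the cohesin acetyltransferase genes Esco1 (-0.42 ± 0.0987) and Esco2 (-0.37 ± 0.115), both named after their values were seen. Esco1 lost its call without the first input library (-0.27, adjusted p = 0.0612, edgeR). Esco2 lost its call without the first input library (adjusted p = 0.0741, edgeR), without the second RIP library (adjusted p = 0.0839, edgeR) and with DESeq2 (adjusted p = 0.0505). Chtf8, at under 1 CPM, did not pass, and Sgo2b had no counts.

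Of the 4 meiotic cohesin genes 2 rose, 1 fell and 1 did not pass, where 38.7% of all genes were called higher and 38.6% lower. Stag3 stood at 117.4 ± 3.90 CPM in RIP and 45.8 ± 1.70 in input (1.36 ± 0.0485), and Rec8, the meiotic kleisin, at 54.9 ± 1.90 CPM in RIP and 30.02 ± 1.93 in input (0.87 ± 0.0661). Smc1b stood at 10.8 ± 0.753 CPM in RIP and 11.8 ± 1.01 in input and did not pass (adjusted p = 0.331, edgeR), but was called lower, at -0.47, by upper-quartile scaling and by total counts. Rad21l, at 0.798 ± 0.209 CPM in RIP and 1.49 ± 0.180 in input, was called lower (-0.90 ± 0.374), a call that was lost on leaving out either input library or the first RIP library. Smc1b and Smc1a have coding sequences of similar length, 3744 and 3699 nt, and log2 fold changes of -0.13 and 1.08. Rad21 per kb exceeded Rec8 by 4.099- and 4.28-fold in RIP and by 6.21- and 5.52-fold in input.

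The other SMC complexes differed from each other, also in median coding length (3493.5 nt for condensin and 2152.5 nt for SMC5/6). Of 8 condensin genes, which compact mitotic chromosomes, 7 rose, against 38.7% of all genes, with a median of 1.58. In the coding length groups from 2493 and from 3495 nt, 77.0% and 81.3% of genes were called higher. With the coding length offset 5 condensin genes were called higher and 3 lower (32.1% and 41.1% of all genes with a coding length). Keeping the scaling from all genes gave 5 higher and 1 lower (39.3% and 33.9%). Of the 7 condensin genes that rose, the 3 with the highest mean CPM were Smc2 (1.46, from 3573 nt of coding sequence), Ncapd2 (1.75 ± 0.0379) and Ncaph (1.98 ± 0.0374). Ncaph2, which had the highest mean CPM of the 8, was not called. It stood at 314.4 ± 8.72 CPM in RIP and 307.9 ± 10.5 in input (0.03 ± 0.0304, and -0.32 with total counts, where it was called lower). Of 8 genes of the SMC5/6 complex, which acts in DNA repair, 4 rose and 3 fell, with a median of 0.06. These counts are near the shares of all genes called higher and lower (38.7% and 38.6%). Slf1 rose by 1.33 and Smc5 by 0.56, Slf2 rose by 0.20 (-0.14 with total counts), and Nsmce1 fell by 1.07, Nsmce2 by 0.37 and Nsmce4a by 0.28. Smc6 stood at -0.09 ± 0.0524 and did not pass, but was called lower with total counts (-0.44). With the coding length offset and scaling from all genes Smc5 stood at -0.47, Slf2 at -0.87 and Nsmce2 at 0.20. With total counts 2 of the SMC5/6 genes were called higher and 5 lower, near the 28.7% and 50.8% of all genes. Against the condensin gene Smc4, Smc3 per kb was 2.08 and 2.05 times as high in RIP and 1.60 and 1.58 times as high in input.

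**Figure D5:**
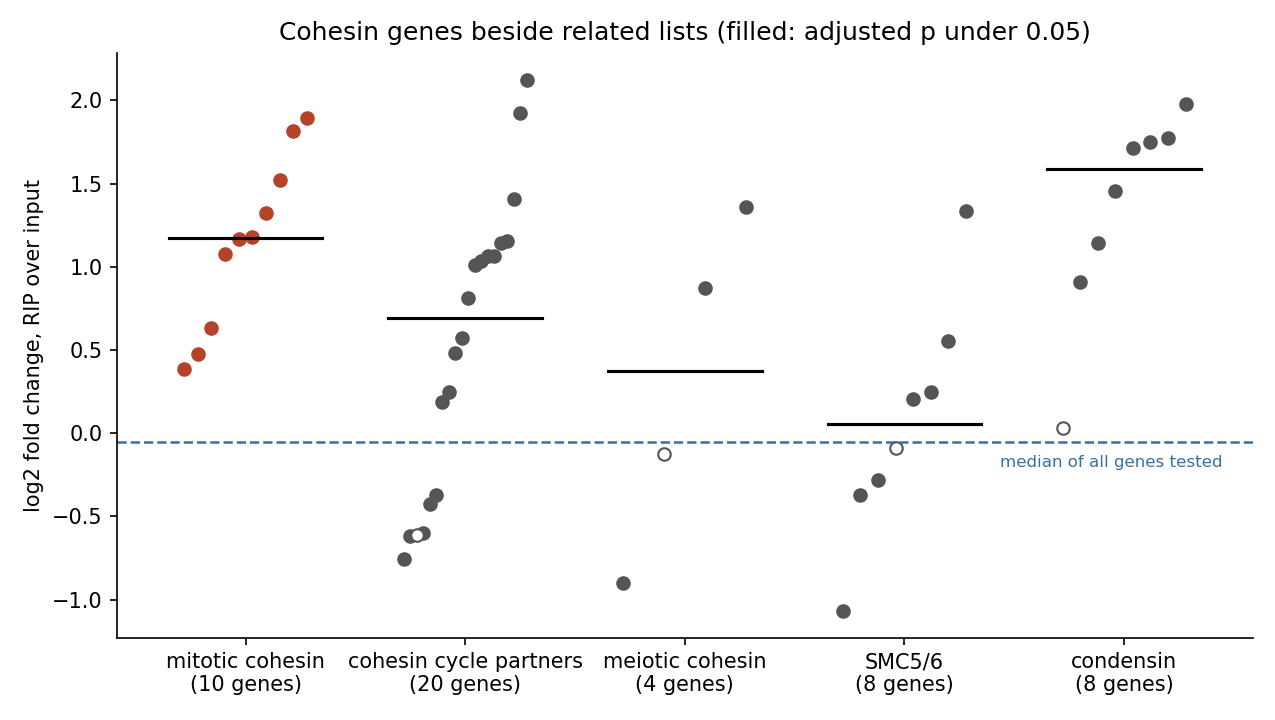
Log2 fold change of RIP over input for the cohesin genes and 4 related lists; points are genes (filled where adjusted p was under 0.05, open otherwise), black lines are list medians and the dashed line is the median of all genes tested. All 10 cohesin genes lie above that line, as do the 8 condensin genes, while the other 3 lists lie on both sides of it.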

How the data were processed

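RNA was sequenced from 2 DDX20 RIP and 2 input libraries, grouped by sample title. The authors deposited raw read counts for each gene and library. The tools named in the submitters' processing notes are Trimmomatic 0.36, cutadapt 4.1, STAR 2.7.2b, SAMtools and featureCounts, and the genome build is GRCm38; no settings and no annotation release are named. Between 65.4% and 67.4% of the nonzero counts of a library are even, a sign that read pairs may have been counted as 2 reads, which would overstate depth. Symbols, lengths and coordinates were looked up in GENCODE M21 (GRCm38), which holds 52081 of the 55357 identifiers but only 35 in the same version, so the gene models counted can differ.

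From these counts, filterByExpr selected the genes tested and TMM set the scaling. The main test of RIP over input was the robust quasi-likelihood test of edgeR 4.0.16 in R 4.3.3, and p-values were adjusted by Benjamini-Hochberg across the 17422 genes (threshold 0.05). A standard error is the size of the log2 fold change over the square root of its F statistic. Coding length excludes the stop codon and belongs to the protein-coding transcript ranked first by APPRIS, or the longest at equal rank; per-kb levels use that transcript's full length. Length offsets are loess trends (span 0.3), with library scaling refitted on the genes that have a length or, as an addition made after seeing the data, kept from all genes. Paralog coding sequences were aligned end to end. Alternatives were DESeq2 1.42.0, limma-voom (limma 3.58.1), other scalings and filters, halved counts, a replicate block, leaving out each library and a test against 1.5-fold. The fits were tested on simulated data. With counts halved, as if each read pair had been counted as 2 reads, replicates differed by 1.15 (RIP) and 1.19 (input) times the counting noise. If pairs were counted so, that is close to what repeat libraries of 1 preparation would give. Each library was entered as a sample because the labels list them as repeats.

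The members, lists and alternatives were chosen with earlier results of these data known. Named genes are all members, all tested genes of the list of 4, and otherwise the 3 called genes with the highest mean CPM per direction in each list.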

Additional observations from a re-analysis of the deposited data

How the results depend on the processing

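All 10 cohesin genes were called higher when any 1 library was left out, with 7 at least 2-fold higher each time, and with RLE scaling, DESeq2, limma-voom, halved counts and other low-count filters. With upper-quartile scaling and with total counts 9 were called, and 3 and 3 reached 2-fold. The replicate block (10 higher, 0 lower) changed no call among them, and same-numbered libraries did not deviate together (r = 0.005). Against a minimum change of 1.5-fold 7 were called, without Rad21, Mau2 and Wapl. With the coding length offset 3 were higher, 0 of them by 2-fold, and 5 lower; Smc1a (-0.18), Rad21 (-0.22), Stag1 (-0.094), Mau2 (-0.10), Wapl (-0.60) and Pds5b (-0.21) changed sign. Keeping the scaling from all genes in that offset fit, an alternative chosen after seeing the data, gave 4 higher, 0 of them by 2-fold, and 2 lower, with Smc1a (-0.041), Rad21 (-0.087), Wapl (-0.47) and Pds5b (-0.073) below 0; 2 meiotic, 5 SMC5/6 and 1 condensin gene were then lower. With the gene length offset 2 reached 2-fold and 1 was lower, Mau2 (-0.24).

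Partners called higher numbered 8 with the coding length offset, and partners called lower numbered 3 with the gene length offset and 3 to 5 without single libraries. Meiotic genes called higher numbered 1 with the coding length offset. Meiotic genes called lower numbered 2 with upper-quartile scaling, total counts and the coding length offset, 0 with no filter, DESeq2 and the gene length offset, and 0 to 1 without single libraries. SMC5/6 genes called higher numbered 2 with upper-quartile scaling, total counts, a minimum mean CPM of 1 and the coding length offset, and 1 with the gene length offset; those called lower numbered 5 with upper-quartile scaling, total counts and the coding length offset. Condensin genes called lower numbered 1 with upper-quartile scaling, total counts, the mean CPM minimum and the gene length offset, and 3 with the coding length offset. The cause of these shifts was not tested. Over all genes, those called lower numbered 6727 with TMM and 8845 with total counts, and those called higher 6734 and 4994. In shares, 28.7% were called higher and 50.8% lower with total counts, and 28.8% higher with upper-quartile scaling. The shares called higher and lower were 32.1% and 41.1% with the coding length offset. They were 39.3% and 33.9% with that offset and scaling from all genes, and 37.6% and 32.3% with the gene length offset.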
